A study of Homo sapiens with 6 samples.

Results

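CD69 and 9 neighbouring C-type lectin genes of chromosome 12 were followed in NB4 cells by sequencing poly(A) RNA. The group held CD69, CLEC2B, CLEC2A, CLEC2D, CLEC12A, CLEC1B, KLRF1, KLRF2, CLEC7A and CLECL1P, which were 10 of the 61806 genes in the table and were found by matching Ensembl identifiers to symbols. NB4 is a long-established cell line from a patient with promyelocytic leukaemia, in which granulocyte precursors stop maturing. A lentivirus was used to overexpress CD69 in the cells of 3 libraries, and the other 3 libraries came from control cells, described as vector controls in the series' design and as wild-type in the genotype label. All 6 carried the same batch number, were grown in the same medium without drug and were collected in logarithmic growth. The sources used here do not say whether a group's libraries stem from different transductions. The p-values therefore reflect only how these libraries spread, and each group may stand for 1 population of cells. The 10 genes were chosen with their differences between the groups already known, so these differences are given below as a description without a test. Tests are given only for genes outside the group. Where counts of genes past the threshold under other settings include members, that is a description.

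C-type lectins of this region, the natural killer gene complex, are single-pass membrane proteins that form dimers on leukocytes. Several are encoded next to the receptor that recognises them: the CLEC2 family proteins are ligands, and the KLR family proteins are receptors of natural killer and T cells. CD69 belongs to the ligand-like branch, appears on leukocytes soon after activation, and keeps cells in tissue by removing the sphingosine 1-phosphate receptor S1PR1 from their surface. CLEC7A (dectin-1), CLEC1B (CLEC-2) and KLRF1 (NKp80) signal through the kinase SYK, whereas CLEC12A carries an inhibitory motif that recruits phosphatases.

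Total counts lay between 51543550 and 57463020 per library. Levels are CPM, counts relative to library size after scaling with TMM factors, and differences are log2 fold changes of overexpressing over control libraries from one edgeR fit over 19485 genes. Among 12 promyelocyte marker genes, all were measured, with a summed level of 1590 to 1901 CPM among controls and 3513 to 4098 CPM with CD69 overexpression, but MPO, myeloperoxidase, held only 0.518 to 1.45 CPM. Of the 12, 5 rose and 2 fell (14.2% and 9.94% of all tested genes did), so the sum does not stand for each gene. CST7 rose from 205 ± 21.1 to 1253 ± 96.7 CPM, whereas MS4A3 fell from 174 ± 1.59 to 106 ± 4.61 CPM and KIT from 3.06 ± 0.547 to 0.642 ± 0.202 CPM. Natural killer and T cell markers summed to 104 to 120 CPM among controls and 114 to 133 CPM with CD69 overexpression. Within that sum the most abundant genes moved in opposite directions: NKG7 rose from 60.5 ± 10.5 to 106 ± 10.9 CPM (adjusted p = 0.00387) and NCAM1 fell from 46.6 ± 1.98 to 12.8 ± 1.17 CPM (adjusted p = 2.47e-05). Of the 5 tested genes of that list, LCK held 5, 7 and 4 counts among controls and 11, 65 and 55 with CD69 overexpression. CD2 held 51, 67 and 51 counts among controls and 0, 8 and 0 with CD69 overexpression. LCK and CD2 each passed the filter on low counts only through the group where it was high, so no call is read from them. CD3E, CD3G, PRF1 and NCR1 were at 0 in all 6 libraries. B cell markers had a sum of 27.7 to 42.6 CPM among controls, against 239 and 252 CPM for overexpressing replicates 2 and 3, while overexpressing replicate 1 was at 38.1 CPM. Platelet markers stayed between 3.35 and 7.74 CPM in sum, with GP9 at 0. Monocyte and dendritic cell markers summed to 59.6 to 63.5 CPM among controls and 73.4 to 93.0 CPM with CD69 overexpression. In bulk RNA, fewer cells with a transcript and less transcript per cell cannot be told apart.

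The gene CD69 (ENSG00000110848), on the minus strand of chromosome 12 from 9752486 to 9760901 in GRCh38, held 4502, 4644 and 3954 counts in control replicates 1, 2 and 3 and 5505, 5587 and 4887 counts in overexpressing replicates 1, 2 and 3. This corresponded to 80.4, 81.9 and 70.6 CPM against 98.3, 99.1 and 95.7 CPM. The 3 overexpressing libraries lay within a narrow band above all controls, and the lowest of them was 1.17 times the highest control. The ratio of the means was 1.26, with a log2 fold change of 0.33 (SE 0.07). The counts cover the gene as a whole, so transcripts of the introduced sequence and of the cells' own gene cannot be told apart. With a ratio of only 1.26, and with 23.0% of all tested genes also higher without overlap, CD69 is only a weak check of the labels. Per kilobase of exon, CD69 stood above 90.8% of the tested genes already among controls and above 93.0% with CD69 overexpression.

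**Figure D1:**
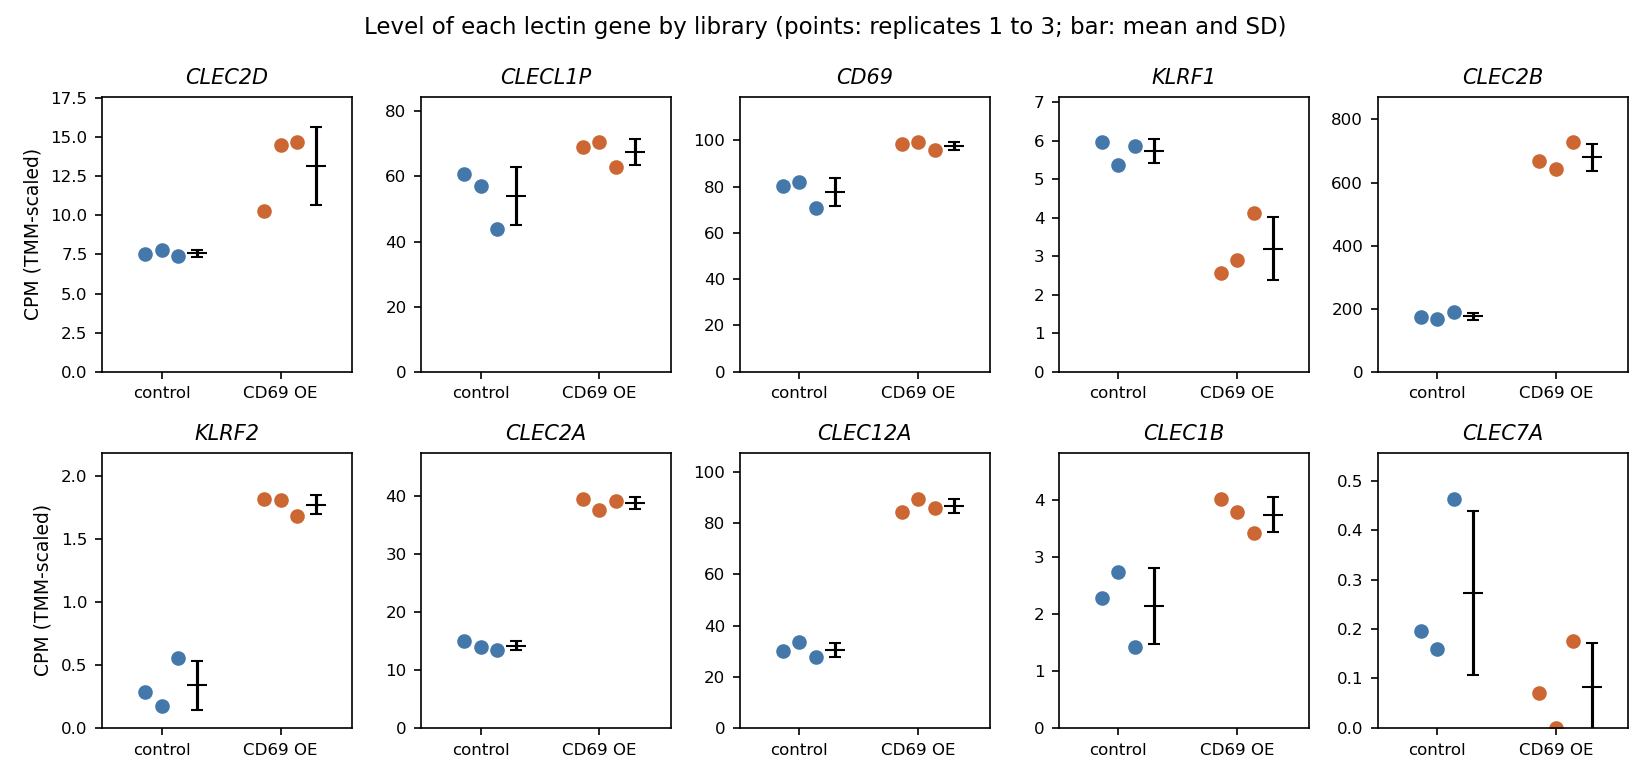
Level of each of the 10 lectin genes in every library, in TMM-scaled CPM on linear axes from 0; points are replicates 1 to 3 of each group from left to right, the bar is the mean with SD (n = 3, cut at 0 for CLEC7A), and the panels follow the order of gene starts along chromosome 12. CLEC2B, KLRF2, CLEC2A and CLEC12A are at least 2.50 times as high in every overexpressing library as in any control, KLRF1 is lower in all 3, and CLEC7A is near 0 throughout.

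The genes of the group differed far more among themselves than CD69 did between the groups. CLEC2B was the largest in level and in absolute change, KLRF1 was the one measured well that was lower, and CD69 and its neighbour CLECL1P differed least. Of the 10 genes, 9 passed the filter on low counts and CLEC7A did not. KLRF2 reached the filter in all 3 overexpressing libraries but in only 2 of the controls, so it would not have been tested on the controls alone. Of the 9, 8 were higher and 1 lower without overlap between the groups, where 23.0% and 19.3% of all tested genes were. Nothing is read from these counts, since the genes were chosen on this contrast. The median log2 fold change of the 9 was 0.81, beside 0.01 over all tested genes, which is likewise a description.

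Among the ligands, CLEC2B (AICL, the ligand of KLRF1; chromosome 12, 9852984 to 9870136, minus strand) held 9722, 9390 and 10524 counts among controls and 37504, 36186 and 37136 with CD69 overexpression. The levels were 174, 166 and 188 CPM against 669, 642 and 727 CPM. Every overexpressing library was at least 3.42 times as high as any control, and within each group the libraries stayed close together. CLEC2B made up 45.0 to 52.3% of the summed CPM of the 10 genes among controls and 66.8 to 70.3% with CD69 overexpression. It supplied 80.7% of the difference of 624 CPM between the group means of that sum. The fitted log2 fold change was 1.95 (SE 0.08), and it stayed between 1.89 and 2.01 when each library was left out in turn. An antisense gene, ENSG00000255882, overlaps 479 bases of its exons but held only 15 to 67 counts in any library.

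CLEC2A (KACL, known from keratinocytes and the ligand of KLRF2; 9898673 to 9932381, minus strand) held 840, 796 and 753 counts among controls and 2215, 2115 and 2001 with CD69 overexpression. Its level went with these counts from 15.0, 14.03 and 13.4 CPM to 39.5, 37.5 and 39.2 CPM, with no overlap. The means stood in a ratio of 2.74 (log2 fold change 1.45, SE 0.08). CLEC2D (LLT1, the ligand of the receptor KLRB1; 9664969 to 9699555, plus strand) was lower in level, at 7.53, 7.81 and 7.39 CPM among controls and 10.3, 14.5 and 14.7 CPM with CD69 overexpression. Overexpressing replicate 1 lay between the controls and the other 2 overexpressing libraries. The log2 fold change was 0.79 (SE 0.16), and 0.94 without that library. A processed pseudogene, NPM1P7, lies within its exons and held 3 to 8 counts. CLECL1P, a lectin-like gene known from B cells and dendritic cells, starts 27.6 kb from CD69 and held 60.8, 56.98 and 43.8 CPM among controls and 69.0, 70.5 and 63.0 CPM with CD69 overexpression. Its highest control and lowest overexpressing library were 1.04 times apart, and its log2 fold change of 0.33 (SE 0.12) was close to that of CD69. The summed B cell markers were high only in overexpressing replicates 2 and 3, and their part in the level of CLECL1P was not tested.

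Among the receptors, KLRF1 (NKp80, an activating receptor of natural killer cells; 9827481 to 9845007, plus strand) held 334, 305 and 329 counts among controls and 144, 163 and 211 counts with CD69 overexpression. The levels were 5.96, 5.38 and 5.87 CPM against 2.57, 2.89 and 4.13 CPM, lower in all 3 without overlap. Overexpressing replicate 3 lay closest to the controls, and without it the log2 fold change moved from -0.84 (SE 0.21) to -1.07. Among natural killer and T cell markers, NCAM1 fell and NKG7 rose, while NCR1 and PRF1 were at 0 in every library. LCK and CD2 passed the filter only through the group where each was high, as given above. The part of these markers in the level of KLRF1 was not tested. KLRF2 (NKp65; 9881489 to 9895833, plus strand) had few counts, 16, 10 and 31 among controls and 102, 102 and 86 with CD69 overexpression. All 3 overexpressing libraries, at 1.82, 1.81 and 1.68 CPM, were at least 3.05 times as high as any control, but the controls differed among themselves from 0.176 to 0.553 CPM. The log2 fold change of 2.38 (SE 0.42) ran from 2.05 to 2.93 as libraries were left out.

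CLEC12A (MICL, an inhibitory receptor of myeloid cells and a surface marker of acute myeloid leukaemia; 9951316 to 9995694, plus strand) held 1683, 1895 and 1558 counts among controls and 4730, 5051 and 4377 with CD69 overexpression. This gave 30.0, 33.4 and 27.8 CPM against 84.4, 89.6 and 85.7 CPM, with a ratio of means of 2.85 (log2 fold change 1.51, SE 0.08). The overexpressing libraries were at least 2.53 times as high as any control. CLEC1B, the podoplanin receptor known from platelets, held 127, 155 and 79 counts among controls and 225, 213 and 174 with CD69 overexpression. Its levels of 2.27, 2.73 and 1.41 CPM against 4.02, 3.78 and 3.41 CPM did not overlap, though the controls spread by almost as much as the groups differed (log2 fold change 0.81, SE 0.27). CLEC12A and CLEC1B lie on opposite strands and share 107 exonic bases, and it is not known whether counting used strand, so a small part of the counts of each is uncertain. CLEC7A, the beta-glucan receptor dectin-1, held 11, 9 and 26 counts among controls and 4, 0 and 9 with CD69 overexpression. The groups overlapped, and a difference was not detectable at this depth.

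Levels can be ordered across genes only per length, here as CPM per kilobase of annotated exon. In the controls the order was CLEC2B at 66.6 ± 4.27 (SD, n = 3), CLECL1P at 31.3 ± 5.17, CD69 at 27.4 ± 2.17, CLEC2A at 11.6 ± 0.643 and CLEC12A at 9.36 ± 0.868. KLRF1 followed at 4.55 ± 0.250, CLEC2D at 1.09 ± 0.0308, CLEC1B at 0.582 ± 0.183, KLRF2 at 0.463 ± 0.265 and CLEC7A at 0.0652 ± 0.0397. Only CLECL1P and CD69, and CLEC1B and KLRF2, overlapped between libraries as neighbours in this order. In the overexpressing libraries the order of the top 5 was the same, with CLEC2B at 258 ± 16.6 and CLEC2A and CLEC12A at 31.8 ± 0.887 and 26.6 ± 0.826, just under CD69 at 34.5 ± 0.619. There, only KLRF1 at 2.54 ± 0.655 and KLRF2 at 2.42 ± 0.103 overlapped. CLEC2B stood above 96.8% of tested genes among controls and above 99.4% with CD69 overexpression.

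In both neighbouring pairs the ligand was higher with CD69 overexpression, whereas KLRF1 was lower and KLRF2 higher, and the ratios below describe genes chosen on this contrast. The ratio of CLEC2B to KLRF1 per kilobase was 13.9, 14.7 and 15.3 among controls and 124, 106 and 84.1 with CD69 overexpression, since the ligand was higher and the receptor lower. The ratio of CLEC2A to KLRF2 was 31.5, 47.7 and 14.6 among controls and 13.0, 12.4 and 13.9 with CD69 overexpression, where both were higher. The lowest control ratio of this pair was close to the overexpressing libraries, and KLRF2 held only 10 to 31 counts in any control. KLRB1, the receptor for CLEC2D, held 23, 6 and 14 counts among controls and 21, 0 and 0 with CD69 overexpression, too few for a ratio.

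**Figure D2:**
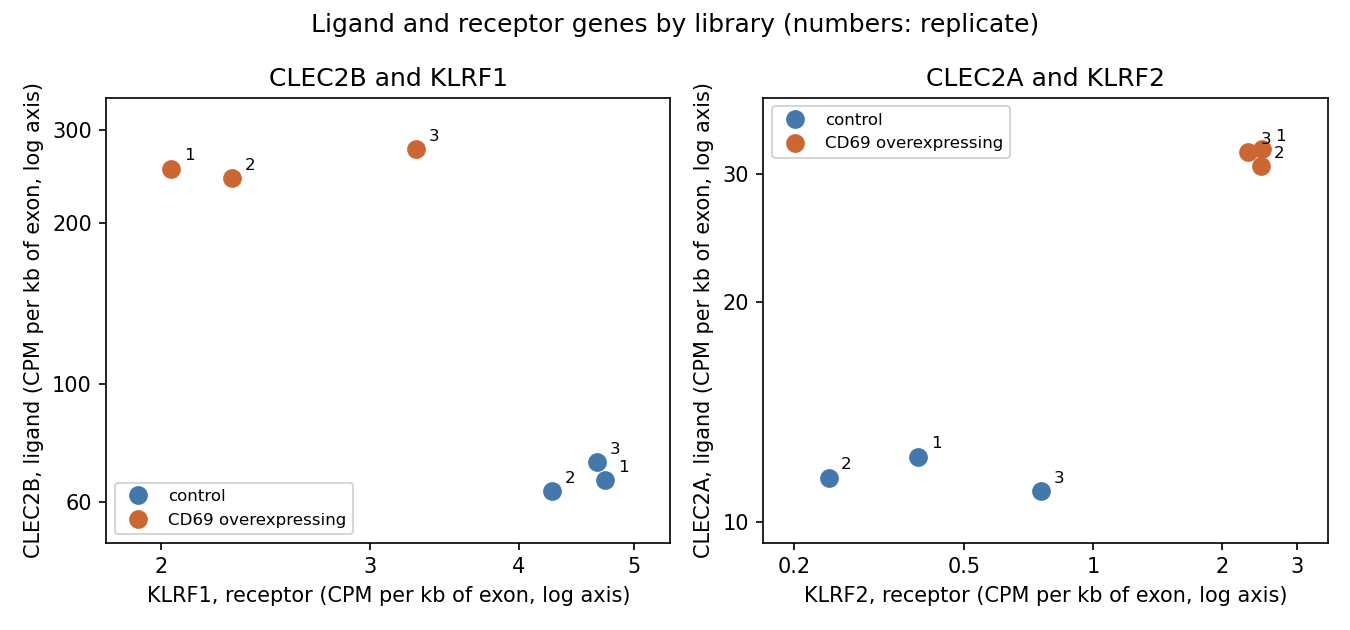
Ligand genes against their receptor genes in each library, in CPM per kilobase of exon on log axes, with CLEC2B and KLRF1 on the left and CLEC2A and KLRF2 on the right; numbers are replicates. On the left the overexpressing libraries lie above and to the left of the controls, and on the right above and to the right, with the controls spread along the KLRF2 axis from 0.241 to 0.757.

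By position, several of the large rises near CD69 lay in a run that was picked out after the values were seen. Between the outer ends of CLEC2B and CLEC12A, a stretch of 142.7 kb, all 7 tested genes were higher with CD69 overexpression without overlap. Their ratios of means ran from 1.94 to 5.24. The highest was that of KLRF2, which would not have been tested on the controls alone. Nothing is read from the count of 7, since members chosen on this contrast bound the stretch and are among the 7. Besides the members CLEC2B, KLRF2, CLEC2A and CLEC12A, the 7 held 3 non-coding genes. The most abundant was LINC02470 (9936579 to 9943495, minus strand), a long non-coding RNA next to CLEC2A, which held 5031, 4926 and 4193 counts among controls and 19624, 19706 and 16647 with CD69 overexpression. Its mean rose from 83.8 ± 7.93 CPM (SD, n = 3) to 342 ± 13.8 CPM, by 2.03 on the log2 scale (SE 0.09; edgeR, Benjamini-Hochberg adjusted p = 9.3e-06). CLEC12A-AS1, antisense to CLEC12A, was at 6.17 ± 0.828 CPM and rose by 0.96 on the log2 scale to 11.98 ± 1.40 CPM (SE 0.16, adjusted p = 0.0039). ENSG00000255882, antisense to CLEC2B, was at 0.356 ± 0.0909 and 0.954 ± 0.364 CPM (adjusted p = 0.0454), a call that was lost without any of the libraries except overexpressing replicate 2 (adjusted p up to 0.145). It shares 479 of its 719 exonic bases with CLEC2B, and CLEC12A-AS1 shares 41 of 3956 with CLEC12A, each on the other strand. It is not known whether counting used strand, so the rise of ENSG00000255882 cannot be told apart from that of CLEC2B.

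On the CD69 side of this run the nearest tested gene was KLRF1, which was lower, as given above. CLEC12B, a myeloid inhibitory receptor gene that overlaps CLEC1B by 46 exonic bases, was at 18.2 ± 0.941 and 22.2 ± 0.502 CPM (log2 fold change 0.29, SE 0.08, adjusted p = 0.0450), and this call was lost with every library left out in turn (adjusted p 0.0584 to 0.133). Of the other tested genes that start within 250 kb of CD69, the pseudogene ENSG00000256594 rose from 6.55 ± 0.742 to 14.04 ± 1.07 CPM, more than CLEC12A-AS1 inside the run by ratio of means (2.14 against 1.94; adjusted p = 0.00107), with exons partly shared with other annotated genes. ENSG00000257027 (adjusted p = 0.0889), LINC02390 (0.690), GOT2P3 (0.403) and KLRB1 (0.638) did not pass. Farther along, TMEM52B, a membrane protein gene 410 kb from the CD69 start, fell from 7.59 ± 0.197 to 3.30 ± 0.225 CPM (log2 fold change -1.20, SE 0.15, adjusted p = 0.0011). STYK1, a kinase-like gene at 913 kb, fell from 2.43 ± 0.237 to 0.777 ± 0.178 CPM (adjusted p = 0.0032). TMEM52B and STYK1 are named here after their values were seen.

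**Figure D3:**
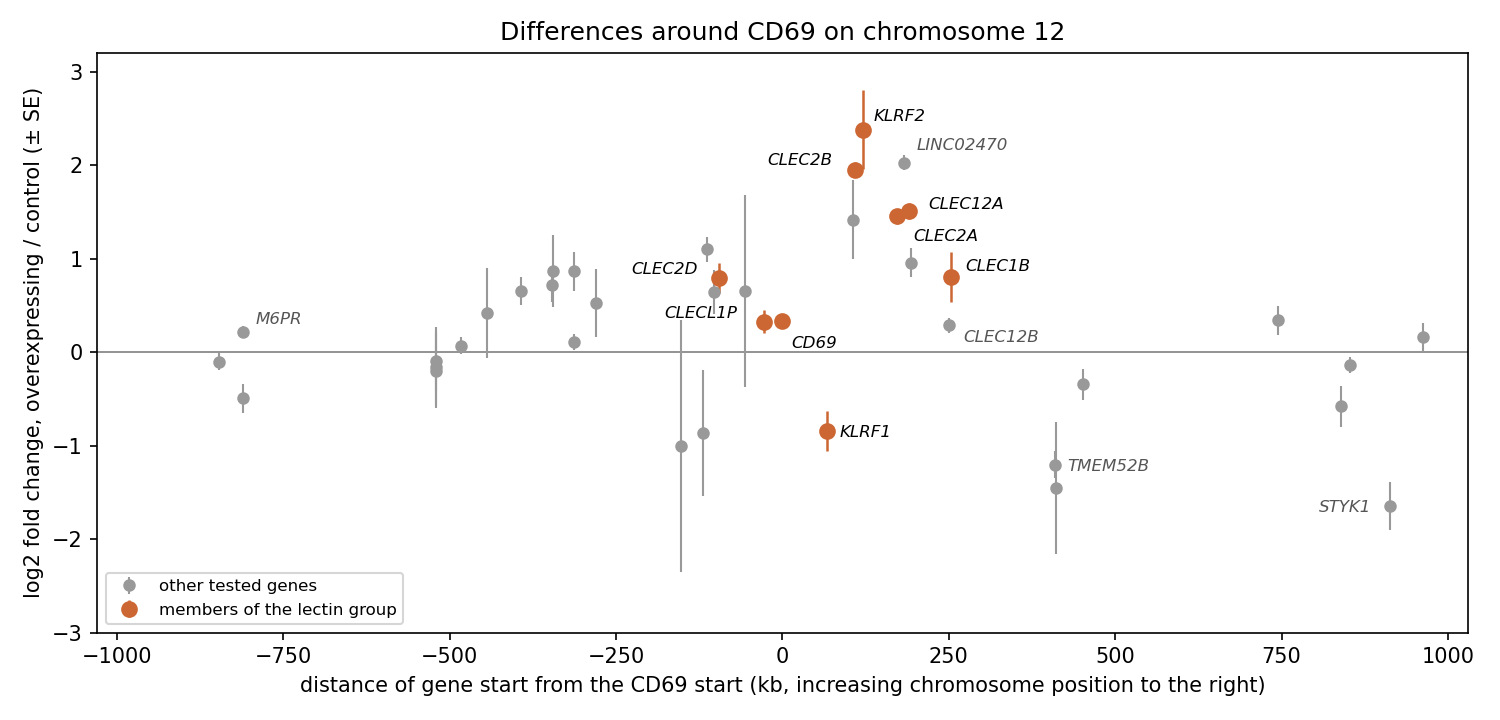
Log2 fold change with SE of tested genes by the distance of their start from the CD69 start in kb; orange points are the lectin genes of the group and grey points are other genes. The 4 orange points from 109 to 190 kb lie between 1.45 and 2.38 with LINC02470 among them, CD69 and CLECL1P lie at 0.33 and KLRF1 at -0.84; LINC02972, with 0 counts in every control, is off the scale and not drawn.

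RefSeq promoter sequences (GRCh38.p14) were available for 5 of the 10 genes, CLEC2D, KLRF2, CLEC2A, CLEC12A and CLEC1B. All 5 were higher with CD69 overexpression, and those of the 3 with the largest rises, KLRF2, CLEC2A and CLEC12A, are shown. Each is the 250 bases before the start, 5′ to 3′ on the gene's strand. Capitals mark matches to the RUNX motif TGTGGT or the PU.1 motif GAGGAA. The 3 sequences come from chr12:9881239-9881488 (plus strand), chr12:9932371-9932620 (minus strand) and chr12:9971159-9971408 (plus strand). The RefSeq starts of CLEC12A, CLEC2D and CLEC1B lie kilobases inside the genes as annotated by GENCODE.
KLRF2: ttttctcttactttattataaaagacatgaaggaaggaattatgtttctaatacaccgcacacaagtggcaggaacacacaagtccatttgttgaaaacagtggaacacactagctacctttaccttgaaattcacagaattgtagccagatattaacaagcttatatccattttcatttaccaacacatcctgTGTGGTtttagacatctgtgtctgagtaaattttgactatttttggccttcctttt
CLEC2A: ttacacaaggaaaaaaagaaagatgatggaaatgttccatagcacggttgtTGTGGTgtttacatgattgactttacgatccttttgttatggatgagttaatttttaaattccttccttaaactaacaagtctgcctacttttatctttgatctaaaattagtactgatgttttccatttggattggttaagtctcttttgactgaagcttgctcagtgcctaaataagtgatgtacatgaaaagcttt
CLEC12A: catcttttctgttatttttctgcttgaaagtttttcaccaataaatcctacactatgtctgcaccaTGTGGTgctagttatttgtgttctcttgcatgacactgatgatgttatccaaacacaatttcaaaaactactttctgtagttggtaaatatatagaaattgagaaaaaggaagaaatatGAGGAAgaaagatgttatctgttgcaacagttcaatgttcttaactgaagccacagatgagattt
The motifs RUNX (TGTGGT), PU.1 (GAGGAA), AP-1 (TGANTCA) and EGR1 (GCGTGGGCG) were searched on both strands, and none of the matches overlaps another. The RUNX motif was present in all 5 windows, 56 bases before the start in KLRF2, 199 in CLEC2A and 184 in CLEC12A, and also in CLEC2D and CLEC1B, whose log2 fold changes were smaller. It was present in 10.98% of all 35116 windows of this length. PU.1 matches were in CLEC12A and CLEC2D (23.6% of all windows), an AP-1 match was in CLEC2D alone (6.57%), and none held the EGR1 motif (0.720%). The 5 windows had 32.8 to 36.4% G and C, against a median of 58.0% over all windows, and a letter match in them is a description, not a site.

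Within 1 Mb on each side of the CD69 start, 32 genes outside the group were tested, of which 10 rose and 2 fell (14.2% and 9.94% of all tested genes did), with a median log2 fold change of 0.19. Of the 10, ENSG00000256594 and ENSG00000284634 share 1870 exonic bases, and ENSG00000255882 shares 479 with CLEC2B. LINC02972, with 0 counts in every control, passed the filter only through the overexpressing group. The 10 are therefore not all separate observations, and their number is a description. Without control replicate 1, 2 or 3 or overexpressing replicate 1, 2 or 3, the number that rose was 5, 4, 6, 6, 6 and 4, and without overexpressing replicate 1 the number that fell was 4. The 8 tested coding genes of the window that are not C-type lectins had 1 higher, the mannose 6-phosphate receptor gene M6PR (adjusted p = 0.0471, named after its value was seen), and 2 lower, TMEM52B and STYK1, with a median of -0.12. The 749 tested coding genes of chromosome 12 had 87 higher and 100 lower, with a median of -0.03.

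The other lectin genes of the complex were mostly silent. Of 18 listed, 6 were tested, and CLEC9A, CLEC1A, CLEC4E and CLEC6A were at 0 in all 6 libraries. CLEC12B rose as given above and CLEC4D fell from 1.39 ± 0.155 to 0.394 ± 0.223 CPM (log2 fold change -1.82, SE 0.48, adjusted p = 0.0292), and the median over the 6 was -0.79. CLEC4D, a receptor that works with CLEC4E in sensing microbial glycolipids, lost its call without control replicate 1, 2 or 3 or overexpressing replicate 3 (adjusted p 0.0503 to 0.0856). It held 82, 85 and 68 counts among controls and 8, 32 and 24 with CD69 overexpression. Overexpressing replicate 1 did not reach the filter, so CLEC4D would not have been tested on the overexpressing libraries alone. Its call is therefore a description. KLRG1, an inhibitory receptor, had a log2 fold change of -0.49 (adjusted p = 0.0552), and the pseudogene KLRA1P one of -0.58 (adjusted p = 0.0977). OLR1, the receptor for oxidised lipoprotein, held 69, 70 and 77 counts among controls and 59, 7 and 11 with CD69 overexpression. Its adjusted p was 0.179, and 0.00378 without overexpressing replicate 1. In that fit the overexpressing libraries held only 7 and 11 counts, and OLR1 passed the filter only through the controls. Nothing is therefore read from the value of 0.00378. KLRB1, with 0 to 23 counts per library, did not pass with all 6 libraries either. With a library left out, the adjusted p ran from 0.0372 to 0.883 for KLRB1 and from 0.0447 to 0.28 for KLRA1P. The natural killer receptor genes KLRD1, KLRK1, KLRC1, KLRC2, KLRC3 and KLRC4 held 0 to 14 counts in any library.

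C-type lectin genes on other chromosomes gave a mixed picture. Of 17 tested from a list of 33, 7 rose and 1 fell, with a median log2 fold change of 0.30 (14.2% and 9.94% of all tested genes rose and fell). The list also held LGALS12, a galectin and no C-type lectin, which is one of the 7. CLEC17A, another of the 7, held 7, 2 and 10 counts among controls and 17, 75 and 69 with CD69 overexpression. It passed the filter only through the overexpressing group, so no call is read from it. CLEC3B, also among the 7, shares 604 of its 1105 exonic bases with EXOSC7. The number 7 is therefore a description. CLEC5A, a myeloid activating receptor, fell from 73.2 ± 2.80 to 34.6 ± 1.24 CPM (log2 fold change -1.08, SE 0.07, adjusted p = 5.77e-05). CD302 rose by 2.62 on the log2 scale, from 0.965 ± 0.280 CPM to 5.93 ± 0.435 CPM (adjusted p = 0.000404), but it shares exons with the read-through gene LY75-CD302 and overlaps a gene on the other strand. The collagen receptor MRC2 rose by 0.69, the IgE receptor FCER2 by 1.01 and CD93 by 0.81 on the log2 scale. FCER2, which is also a B cell gene, had an adjusted p of 0.0015.

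Of 17 tested genes for ligands and partners of CD69, 2 rose and 5 fell (14.2% and 9.94% of all tested genes did), with a median log2 fold change of -0.06. SLC7A5 and SLC3A2 encode the 2 chains of the amino acid transporter that associates with CD69. SLC7A5 held 566, 551 and 614 CPM among controls and 341, 354 and 327 CPM with CD69 overexpression, and SLC3A2 257, 267 and 293 against 191, 189 and 213 CPM. Both fell without overlap, SLC7A5 by 0.76 (SE 0.07, adjusted p = 0.000241) and SLC3A2 by 0.46 on the log2 scale (SE 0.08, adjusted p = 0.0044). S100A9, a subunit of the CD69 ligand calprotectin, fell from 20.8 ± 2.84 to 6.86 ± 1.47 CPM (adjusted p = 0.000717), while S100A8, the other subunit, held only 0.143 to 1.54 CPM. ANXA2 fell by 0.92 (SE 0.08) and STAT5A, which acts downstream of CD69, rose by 0.62 (SE 0.07). S1PR1, the receptor that CD69 protein removes from the surface, is named after its values were seen. MYL9, a light chain gene of a CD69 ligand, held 411, 389 and 407 counts among controls and 431, 74 and 54 in overexpressing replicates 1, 2 and 3 (adjusted p = 0.298). S1PR1 held 19, 20 and 10 counts among controls and 0, 47 and 42 in overexpressing replicates 1, 2 and 3 (adjusted p = 0.588). The 2 overexpressing libraries with S1PR1 counts above the controls were those with the high B cell markers. The part of those markers in this was not tested.

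Of 21 genes of the SYK and CARD9 route used by CLEC7A, CLEC1B and KLRF1, 4 rose and 4 fell, beside 14.2% and 9.94% of all tested genes (median log2 fold change -0.04). The kinase SYK itself was at 281 ± 2.42 CPM among controls and 264 ± 14.7 CPM with CD69 overexpression (adjusted p = 0.332). The adaptor LCP2 rose by 0.97 (SE 0.09), the kinase BTK by 0.73 (SE 0.07) and PLCG2 by 0.40 (SE 0.06), while NFATC2 fell by 0.76 on the log2 scale (SE 0.12). BLNK, an adaptor of B cells, was lowest in the controls, at 0.214 to 0.793 CPM, and reached 3.25, 7.61 and 8.13 CPM in the overexpressing replicates 1, 2 and 3, a rise of 3.49 (SE 0.54, adjusted p = 0.0030). The summed B cell markers were also highest in replicates 2 and 3, and their part in this was not tested. Of the 8 genes of the phosphatase route that CLEC12A uses, none passed edgeR's test. At an unadjusted p under 0.05 there was 1 higher and 0 lower, and DESeq2 called 1, DOK1. The shares of all tested genes at that threshold and with DESeq2 are not given here, so nothing is read from these counts. PTPN6, the phosphatase SHP-1, had a log2 fold change of -0.09 (SE 0.08), PTPN11 -0.09 (SE 0.14), INPP5D 0.11 (SE 0.07), INPPL1 0.05, SHC1 -0.10, GRB2 -0.09, DOK1 0.26 and DOK2 0.21.

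Of 24 transcription factor genes known to act on CD69 or on its induction, 7 rose and 4 fell (14.2% and 9.94% of all tested genes did), with a median log2 fold change of -0.11. EGR1, an immediate early factor, held 14.2, 11.6 and 10.1 CPM among controls and 71.8, 75.0 and 67.1 CPM with CD69 overexpression (log2 fold change 2.58, SE 0.13, adjusted p = 2.47e-05). FOS rose by 0.99 (SE 0.10) and FOSB from 3.47 ± 0.0940 to 9.80 ± 1.86 CPM, while FOSL2 fell by 0.85 (SE 0.08). RUNX1, a factor of blood cell development, fell by 0.84 on the log2 scale (SE 0.09, adjusted p = 0.000508), from 201, 181 and 164 CPM to 102, 106 and 96.5 CPM.

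**Figure D4:**
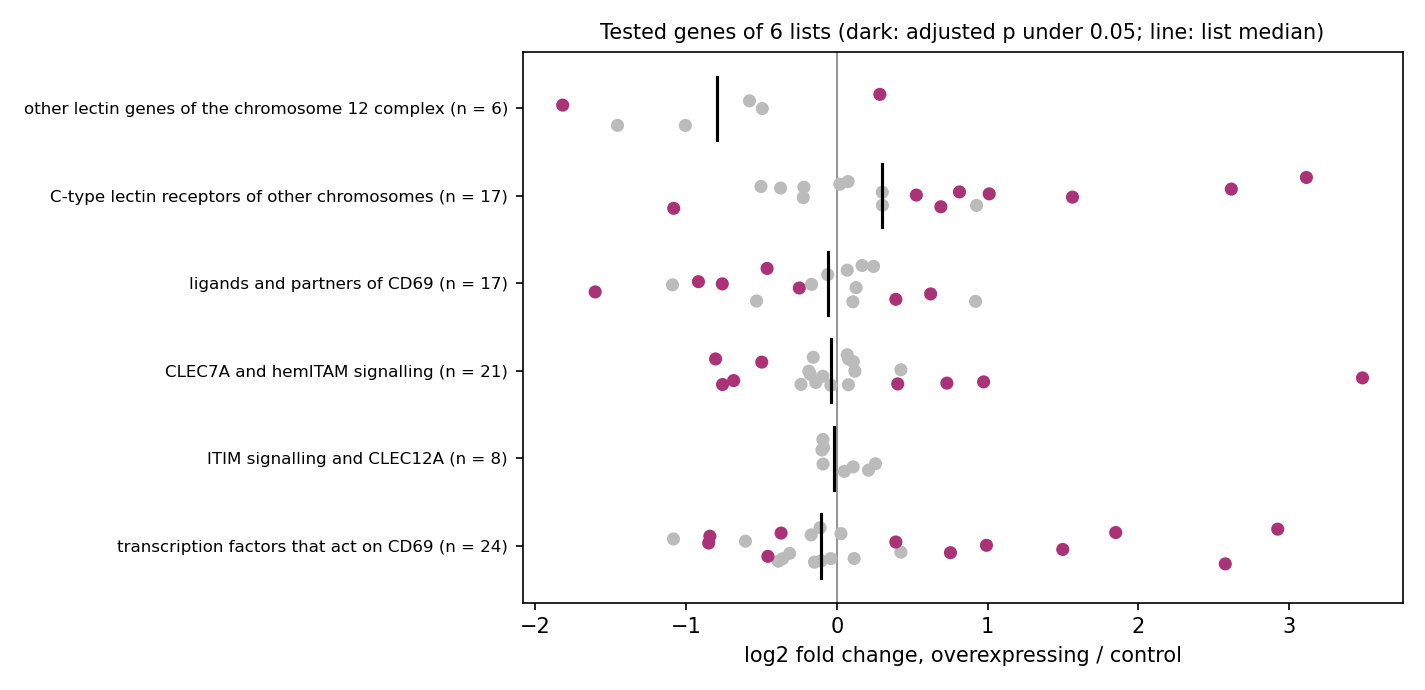
Log2 fold change of the tested genes of 6 lists (number tested in brackets), each point 1 gene, dark where the adjusted p was under 0.05 and with a vertical line at the list median; vertical scatter within a row has no meaning. The medians lie between -0.79 for the other lectin genes of the complex and 0.30 for C-type lectins of other chromosomes.

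The genes whose levels followed CD69 most closely over the 6 libraries, among tested genes of at least 5 mean CPM, were FBXO22, SPIN4, SLC25A40, STK26 and GMCL1, with Pearson's r of log2 CPM between 0.998 and 0.999. Each shared the low value of control replicate 3 with CD69, and they lie on chromosomes 15, X, 7 and 2. The closest to CLEC2B were FRS3, SERPINB1, CST7, MAD2L1BP and FANCE, with r between 0.999 and 1.000, on chromosomes 6 and 20. SERPINB1, an inhibitor of granule proteases, was at 194 ± 12.7 and 1076 ± 52.8 CPM. The libraries fall into 2 groups, so r here mostly measures a shared difference between the groups: 254 genes had an r over 0.99 with CLEC2B and 81 with CD69.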

How the data were processed

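For the 6 libraries the authors deposited a single count table by gene. FastQC, fastp, STAR, featureCounts (Subread) and GRCh38 (hg38) are named, per the submitters' processing notes. Their versions, the annotation, the strand setting and whether reads or fragments were counted are details not given in the sources used here. As deposited, the numbers are whole but were handled as estimated counts, because 1496 genes held exactly 4 counts in control replicate 1 against 777 at 3 and 505 at 5, so 1 fragment may stand for several counts and the depth may be lower than the totals. Symbols were matched for 61757 of 61806 genes, and positions and exon lengths are from GENCODE on GRCh38.

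Genes passing edgeR's filterByExpr (minimum count 10) were fitted with TMM factors and the quasi-likelihood test (two-sided; edgeR 4.0.16 in R 4.3.3). Adjustment followed Benjamini and Hochberg over 19485 genes, with a threshold of 0.05. The alternatives were RLE or no scaling factors, no filter, DESeq2 1.42.0, a replicate block, counts divided by 4 and each library left out. The fit was tested on simulated data, but no outcome is given here and nothing about the p-values is read from it. Named genes were the 10 members, all tested genes within 250 kb of the CD69 start and, for each list, all genes if at most 8 were tested or otherwise the 5 with the smallest p past the threshold, and the 5 genes most like CD69 or CLEC2B. SYK, S100A8, S1PR1, MYL9, VCAN, ITGB3, KLRD1, KLRK1, the KLRC genes, M6PR, TMEM52B, STYK1, A2M, LINC02972, ENSG00000284634, LGALS12, CLEC17A, CLEC3B and the marker genes were named after their values were seen. The members and lists were chosen with earlier results of these data known, and the motifs after the values were seen. Libraries of a group were not identical: chi-square per degree of freedom between them, on counts divided by 4, was 2.37 to 14.2. Its scale depends on how many counts 1 fragment stands for. Repeat libraries of 1 RNA therefore cannot be told apart from separate samples by it. Figures were drawn with matplotlib 3.10.9.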

Additional observations from a re-analysis of the deposited data

How the results depend on the processing

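The log2 fold changes of the 9 tested members kept their direction under all 12 alternatives, with CD69 between 0.27 and 0.36 and CLEC2B between 1.89 and 2.01 with a library left out. Small list counts moved. The other lectin genes of the complex had 0 higher and 2 lower with RLE factors, 0 higher without scaling factors, 0 higher and 0 lower without a filter, and 2 lower with DESeq2 or counts divided by 4. The phosphatase list had 1 higher without scaling factors, with DESeq2, with the replicate block and with counts divided by 4. DESeq2 called 2 lower among lectins of other chromosomes, and without a filter 0 members were past the threshold as lower, against 1 (a description, since members were chosen on this contrast). With a library left out, genes called higher numbered 1783 to 2917 and lower 1137 to 2226, all genes within 1 Mb 10 to 12 higher (against 16, members included), those outside the group 4 to 6 higher and 2 to 4 lower, members 0 to 1 lower, other lectins of the complex 0 higher and 0 to 3 lower, lectins of other chromosomes 1 to 2 lower, CD69 partners 2 to 4 higher, the SYK route 2 to 4 lower and the phosphatase route 0 to 2 higher. Fewer samples were fitted there; otherwise the cause was not tested. Same-numbered libraries did not all deviate together (r of deviations -0.01, 0.07 and 0.18 for replicates 1, 2 and 3), so the numbers were not taken as pairs; with the replicate block the CD69 partners had 4 higher against 2. Counts near the filter, as for KLRF2, KLRB1 and CLEC7A, limit what this depth can show.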

Other observations

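A few genes near CD69 or tied to it had uneven counts among the overexpressing libraries. A2M, the gene of the protease inhibitor alpha-2-macroglobulin, held 0 counts in every control and 8, 150 and 0 counts in overexpressing replicates 1, 2 and 3. S100A8 held 8, 87 and 19 counts in overexpressing replicates 1, 2 and 3, against 59, 60 and 49 in the controls. OLR1 in overexpressing replicate 1, at 1.05 CPM, was near the control range of 1.23 to 1.37 CPM, whereas replicates 2 and 3 held 0.124 and 0.215 CPM.
VCAN and ITGB3, from the monocyte and the platelet marker lists, held 1231, 182 and 195 counts and 264, 10 and 13 counts in overexpressing replicates 1, 2 and 3, with replicate 1 in or near the control ranges of 1033 to 1147 and 184 to 334. LINC02972, a non-coding gene within 1 Mb of CD69, held 0 counts in every control and 103, 148 and 171 counts in overexpressing replicates 1, 2 and 3, so there all 3 were above the controls.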
